A study of Mus musculus with 189 samples.

Results

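The genes of the high-affinity IgE receptor and of its first signalling steps described here number 10: Fcer1a, Ms4a2, Fcer1g, Lyn, Syk, Lat, Lat2, Gab2, Plcg2 and Btk. They were chosen by symbol, and all 10 had a row among the 46078 gene rows of the count table. Their levels are given as CPM, the reads of a gene per 1000000 reads on endogenous genes of the same cell, in the 187 of 189 single cells that held at least 100000 such reads. They were peritoneal cells of 4 C57BL/6 mice, all female. No treatment, genotype or age of the mice is named in the labels. Both sort gates took live, lineage-negative, c-Kit-positive cells that carried the IgE receptor on the surface. Mature mast cells (94 cells, all kept) were gated as integrin β7 low with high side scatter, whereas basophil-mast cell progenitors (BMCPs, 95 cells, 93 kept) were integrin β7 high with low side scatter.

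The receptor is a complex of an α chain (Fcer1a) that binds IgE, a β chain (Ms4a2) that amplifies signals and a shared γ chain (Fcer1g) that carries the activation motif. When antigen crosslinks IgE on a mast cell, the Src-family kinase Lyn phosphorylates the β and γ chains, and the kinase Syk binds the phosphorylated γ chain. Syk then phosphorylates the adaptors Lat and Lat2, around which Gab2, Plcg2 and the Tec-family kinase Btk act on the way to phosphoinositide and calcium signals that drive degranulation.

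On GRCm38 with GENCODE M21, all 10 are protein-coding genes. The receptor chain genes are Fcer1a (ENSMUSG00000005339) at chr1:173221284-173227214 (minus strand), Ms4a2 (ENSMUSG00000024680) at chr19:11615523-11623719 (minus strand) and Fcer1g (ENSMUSG00000058715) at chr1:171229572-171234365 (minus strand). The kinase genes are Lyn (ENSMUSG00000042228) at chr4:3678115-3813122 (plus strand), Syk (ENSMUSG00000021457) at chr13:52583173-52648792 (plus strand) and Btk (ENSMUSG00000031264) at chrX:134542336-134583570 (minus strand). The adaptor genes are Lat (ENSMUSG00000030742) at chr7:126363824-126369570 (minus strand), Lat2 (ENSMUSG00000040751) at chr5:134600022-134615025 (minus strand) and Gab2 (ENSMUSG00000004508) at chr7:97081586-97308946 (plus strand), and the phospholipase gene is Plcg2 (ENSMUSG00000034330) at chr8:117498291-117635142 (plus strand).

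No cell was assigned to a mouse, so each group was 1 pooled sample and no test was made. Every group difference here has no replicate check, and intervals at 95% cover error in counting reads or cells only. Reads carried no molecular identifiers, so copies made in amplification count as separate reads. Intervals on reads are therefore narrower than intervals on molecules would be. Endogenous reads per kept cell ranged from 561600 to 2152221 in mature mast cells and from 344022 to 2091665 in BMCPs. The groups had nearly the same median depth, 1255270 and 1247890 reads. Spike-in (ERCC) RNA took a larger share in BMCPs, with medians of 562 endogenous reads per ERCC read against 939.1 in mature mast cells. The median number of genes at 10 CPM or more was 2698.5 per mature mast cell and 2295 per BMCP. In the columns of the deposited table, mature mast cells 1 to 47 came first, then all BMCPs, then mature mast cells 48 to 94. The BMCPs were divided here between numbers 48 and 49. Block 1 is mature mast cells 1 to 47 and BMCPs 1 to 48, and block 2 is the others. The labels do not name such blocks or say whether cells of a block were handled together.

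Mast cell identity was looked at in 12 sort marker and mast cell genes, Kit and the carboxypeptidase Cpa3 among them. Cpa3 was at 10 CPM or more in 94 of 94 mature mast cells and 93 of 93 BMCPs, and Kit in 93 of 94 and 89 of 93. BMCPs 46 and 80 (below) also passed this cut for Cpa3, so it does not establish identity. Cma1, Tpsb2, Srgn and Mcpt4 passed it in every kept cell. Median Mcpt4 was still 33.4 CPM over BMCPs against 25503 CPM over mature mast cells. Fewer BMCPs passed for Gata2 (88 of 93), Slc18a2 (86), Ndst2 (82), Mrgprb2 (72), Hdc (66) and Mrgprb1 (46). At least 92 of 94 mature mast cells passed for each of these. BMCPs 46 and 80 stood apart. They held 49765 and 43636 CPM of Cd74, with Cd79a at 4795 and 6527 CPM and Ighm at 7839 and 10071 CPM, all B cell genes. Their Kit was at 1.47 and 3.51 CPM, and Cpa3 was at 112.7 and 160.4 CPM against a BMCP median of 49842 CPM. Summed over the 8 B cell marker genes, mature mast cells had a median of 258.2 CPM (0 to 1355), mainly from Ighm and Blnk, and BMCPs had 3.35 CPM (0 to 71614). The macrophage, neutrophil and eosinophil lists summed to at most 214.1, 1.60 and 805.1 CPM in any cell, the T cell list to at most 2041 CPM, and the NK cell list was at 0 reads throughout. Of the basophil genes, Mcpt8 was at 10 CPM or more in 11 mature mast cells and 43 BMCPs, whereas Prss34 was so in 38 and 29 and Cd200r3 in 79 and 53. The part of these other markers in the results was not tested. The results in which wells 46 and 80 weigh most are given with and without them.

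The receptor's promoter sequences are shown because both gates were set on this receptor and its 3 chains form 1 complex. The RefSeq table (GRCm38.p6) held 7 of the 10 genes, and the stretch from 250 to 21 bases before the annotated start is printed 5′ to 3′ on the gene's strand, with each GATAA in capitals, the core that GATA factors bind, which reads TTATC where it lies on the other strand. Fcer1a lay at chr1:173227250-173227479, Ms4a2 at chr19:11623740-11623969 and Fcer1g at chr1:171234370-171234599, all on the minus strand and none overlapping an annotated exon.
Fcer1a: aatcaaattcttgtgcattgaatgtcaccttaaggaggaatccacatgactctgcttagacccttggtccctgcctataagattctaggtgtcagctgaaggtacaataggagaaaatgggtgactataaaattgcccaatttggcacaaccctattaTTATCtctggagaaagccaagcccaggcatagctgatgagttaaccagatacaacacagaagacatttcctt
Ms4a2: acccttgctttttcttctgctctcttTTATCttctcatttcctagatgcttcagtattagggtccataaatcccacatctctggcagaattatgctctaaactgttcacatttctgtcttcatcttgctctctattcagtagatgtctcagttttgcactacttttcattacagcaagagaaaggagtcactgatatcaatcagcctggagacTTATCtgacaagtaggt
Fcer1g: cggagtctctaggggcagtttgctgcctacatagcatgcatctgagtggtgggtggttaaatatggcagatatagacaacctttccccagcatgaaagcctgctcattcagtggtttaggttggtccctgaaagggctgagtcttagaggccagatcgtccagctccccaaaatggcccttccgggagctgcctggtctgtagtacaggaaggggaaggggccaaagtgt

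The Fcer1a stretch held 1 GATAA core, 1 GAGGAA core of the kind bound by the ETS factor PU.1 and 1 CACNTG E-box of the kind bound by MITF, each searched for on both strands. Ms4a2 held 2 GATAA cores and neither of the others. Fcer1g held none of these letters. Among the 32851 stretches of this length in the table, 21.5% held GATAA, 21.3% held GAGGAA and 37.2% held CACNTG. These matches describe letters in a window and were not tied to binding.

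Fcer1a RNA was abundant in nearly every cell of both gates. It ranged over single cells from 8.53 through a median of 3546 to 12478 CPM in mature mast cells, while the BMCP range was from 3.43 through 2418 to 10118 CPM. The ranges overlapped almost fully. Pooled over cells, mature mast cells had 3844 CPM (interval 3833 to 3855) against 3105 CPM (3095 to 3115) for BMCPs, a log2 ratio of 0.31. The ratio was 0.60 in block 1 and 0.05 in block 2, so its size was not shared by the blocks.

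A few wells had hardly any Fcer1a. The level was at 10 CPM or more in 93 of 94 mature mast cells (98.9%, exact Clopper-Pearson interval 94.2 to 99.97) but 87 of 93 BMCPs (93.5%, 86.5 to 97.6). BMCPs 46 and 80, with the B cell genes, had 3.43 and 5.85 CPM. In the other 4 BMCPs below 10 CPM (51, 52, 55 and 83) Fcer1a was between 4.803 and 7.44 CPM, close to the level in those B cell gene wells, while Fcer1g was between 3304 and 4854 CPM. BMCPs 51 and 52 also had Ms4a2 at only 1.33 and 2.40 CPM, with Kit at 987.5 and 747.5 CPM. BMCP 55 had Kit at 1.06 CPM and 38126 ERCC reads, against a BMCP median of 2333, and what set it apart was not tested. The single mature mast cell below 10 CPM, cell 35, had 8.53 CPM of Fcer1a beside 621.1 CPM of Ms4a2 and 2286 CPM of Fcer1g.

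Fcer1g, which also serves other Fc receptors, was the most even of the 10 genes across cells. It ranged from 1285 through a median of 2826 to 4852 CPM in mature mast cells. In BMCPs it ranged from 4.90 through 3283 to 5684 CPM, and without wells 46 and 80 the lowest BMCP was at 541.9 CPM. The squared coefficient of variation over cells was 0.069 in mature mast cells and 0.13 in BMCPs, or 0.11 without those wells. The pooled levels were 2874 and 3193 CPM, a log2 ratio of -0.15, and -0.14 and -0.17 in the blocks. The BMCP range was wider at both ends.

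Ms4a2 was lower and more often missing. It ranged from 1.78 through a median of 572.1 to 1856 CPM in mature mast cells while the BMCP range was from 0 through 613.3 to 3319 CPM. Cells below 10 CPM numbered 5 among mature mast cells and 17 among BMCPs, and 8 of the latter had no read. Both other chains were at 100 CPM or more in all 5 of those mature mast cells and in 12 of those 17 BMCPs. The share of cells at 10 CPM or more was 94.7% (88.02 to 98.3) for mature mast cells against 81.7% (72.4 to 88.98) for BMCPs. The pooled levels were 659 and 734.2 CPM, a log2 ratio of -0.16. Fewer BMCPs with the RNA and a higher pooled BMCP level thus stood side by side.

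All 3 chains were at 10 CPM or more in 88 of 94 mature mast cells (93.6%, 86.6 to 97.6) but 74 of 93 BMCPs (79.6%, 69.9 to 87.2). Without wells 46 and 80 the BMCP share was 74 of 91 (81.3%, 71.8 to 88.7). Both shares sit within gates set on surface IgE receptor, so they do not describe cells without it. Per kilobase of annotated exon, pooled Fcer1a exceeded Ms4a2 by 16.4-fold in mature mast cells and 11.9-fold in BMCPs, and Fcer1g exceeded Ms4a2 by 14-fold in both. The length used is that of all annotated exons of a gene merged. Which transcripts the cells used was not determined, so all values per kilobase here are approximate. Fcer1g was above Ms4a2 per kilobase in 94 of 94 and 93 of 93 cells. Which of the α and γ chains led differed: Fcer1a was above Fcer1g per kilobase in 57 of 94 mature mast cells and in 30 of 93 BMCPs.

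**Figure D1:**
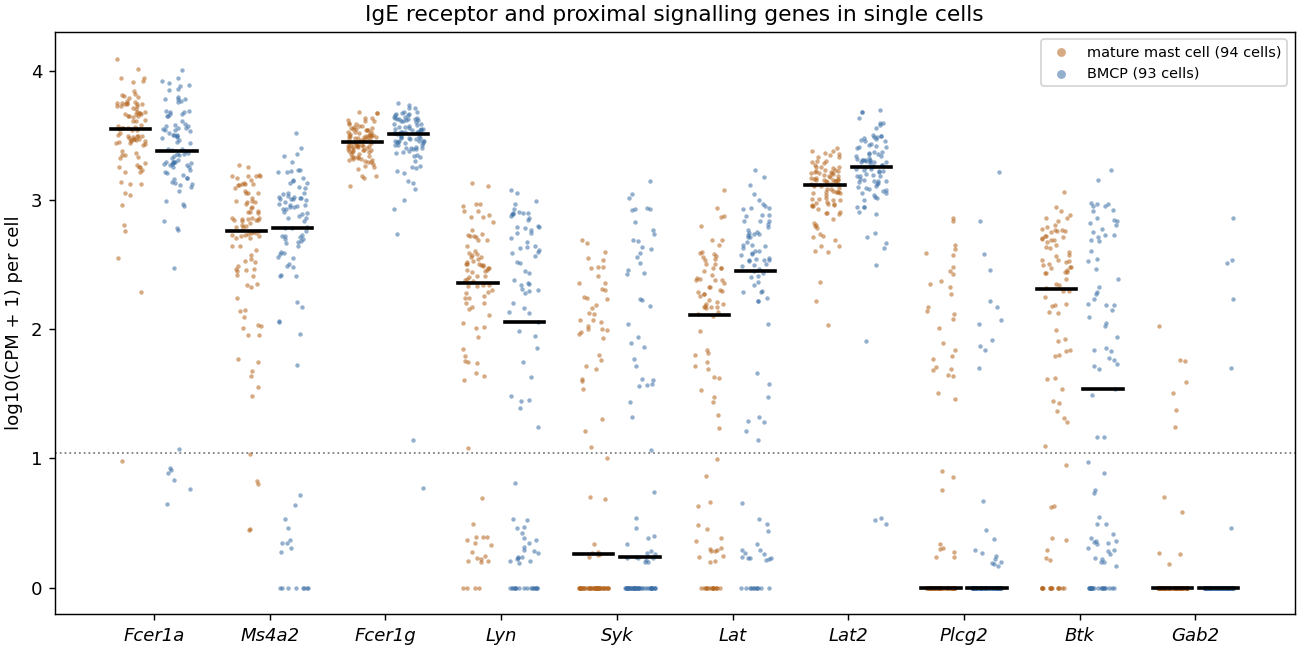
Level of each gene in each cell, as log10(CPM + 1), for 94 mature mast cells (brown) and 93 BMCPs (blue); black bars are medians over cells and the dotted line is 10 CPM. Fcer1a, Fcer1g and Lat2 form bands near or above 1000 CPM in both groups, whereas Syk, Plcg2 and Gab2 have medians under 1 CPM.

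Lyn, the kinase that starts the cascade, was read at moderate levels in most cells. It ranged from 0 through a median of 228.4 to 1355 CPM in mature mast cells while the BMCP range was from 0 through 112.9 to 1196 CPM. It was at 10 CPM or more in 75 of 94 (79.8%, 70.2 to 87.4) and 57 of 93 (61.3%, 50.6 to 71.2) cells. In the pools Lyn was close, at 282.4 and 260.6 CPM, a log2 ratio of 0.12, while the ratio of cell medians was 1.01 on the log2 scale. The upper quartile over BMCPs was 441.9 CPM against 371.9 CPM over mature mast cells, so lower detection in BMCPs stood beside a higher upper part. At least 1 read was found in 90 of 94 and 77 of 93 cells. BMCP 46, the well with most B cell reads, had 780.8 CPM of Lyn. A stretch of 248 exon bases of Lyn (6.09%) overlaps the antisense gene Gm26857, whose reads cannot be told apart if counting ignored strand.

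Syk was clearly read in a minority of cells in both groups. It ranged from 0 through a median of 0.80 to 491.1 CPM in mature mast cells while the BMCP range was from 0 through 0.74 to 1395 CPM. It was at 10 CPM or more in 40 of 94 mature mast cells (42.6%, 32.4 to 53.2) against 37 of 93 BMCPs (39.8%, 29.8 to 50.5). BMCPs had 140.7 CPM in the pool (138.6 to 142.8) against 62.9 CPM (61.4 to 64.3) for mature mast cells. That log2 ratio of -1.15 (-1.19 to -1.11) lay in the height of the positive BMCPs, and BMCP 33 alone held 12.7% of the BMCP reads. Without the highest BMCP it was -0.97, short of 2-fold. The ratio was -0.39 in block 1 and -2.15 in block 2.

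Syk was low per kilobase beside the kinase that precedes it. Lyn was above Syk per kilobase in 83 of the 93 mature mast cells with a read of either and in 65 of the 86 such BMCPs. The pooled ratio of Lyn to Syk per kilobase was 10.3 in mature mast cells and 4.26 in BMCPs.

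Lat2, the adaptor also known as NTAL, was an abundant member in both gates. It ranged from 107.4 through a median of 1301 to 2527 CPM in mature mast cells while the BMCP range was from 2.12 through 1799 to 5006 CPM. It was at 10 CPM or more in 94 of 94 and 90 of 93 cells. The 3 BMCPs below were 46, 80 and 55. The pooled levels were 1303 and 1908 CPM, a log2 ratio of -0.55, with -0.58 and -0.52 in the blocks. The BMCPs reached higher, and 952 exon bases of Lat2 (36.3%) overlap the antisense gene Rfc2, which makes its level uncertain if strand was ignored.

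Lat, the related adaptor, was lower in both groups. It ranged from 0 through a median of 127.9 to 1202 CPM in mature mast cells while the BMCP range was from 0 through 283.6 to 1722 CPM. It was at 10 CPM or more in 62 of 94 (66%, 55.5 to 75.4) and 67 of 93 (72.0%, 61.8 to 80.9) cells. Pooled Lat was at 173.6 and 333.8 CPM, a log2 ratio of -0.94 (-0.96 to -0.91), with -0.84 and -1.03 in the blocks. Lat leaned to BMCPs in either block and without the highest cell of either group (-1.04 and -0.86). Per kilobase, Lat2 was above Lat in 94 of 94 mature mast cells and 92 of 93 BMCPs, by 7.92-fold and 6.04-fold in the pools.

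Gab2, an adaptor that recruits phosphoinositide 3-kinase, was barely sampled. It was at 10 CPM or more in 7 mature mast cells and 5 BMCPs, with medians of 0 CPM and highest cells of 104.6 and 721.2 CPM. Pooled Gab2 was at 3.29 and 13.4 CPM, a log2 ratio of -1.74 (-1.87 to -1.62). BMCP 88 held 40.2% of the BMCP reads, and the ratio without it was -1.09. The number of cells with Gab2 was not higher in BMCPs.

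Plcg2, a phospholipase C that makes the second messengers for calcium release, was found in 29 of 94 mature mast cells at 10 CPM or more (30.9%, 21.7 to 41.2) but only 12 of 93 BMCPs (12.9%, 6.85 to 21.5). At least 1 read was found in 38 (40.4%) and 23 (24.7%) cells, and in 31 and 14 after every cell was thinned to 100000 reads. It ranged from 0 through a median of 0 to 731.2 CPM in mature mast cells while the BMCP range was from 0 through 0 to 1645 CPM. The pools held 66.1 and 35.3 CPM, a log2 ratio of 0.88 (0.83 to 0.94). BMCP 46, with the B cell genes, held 33.4% of all BMCP reads of Plcg2, and without wells 46 and 80 the ratio was 1.42. It was -0.21 in block 1, which held well 46 and also BMCP 40, the highest cell at 1645 CPM, and 2.61 in block 2. The part of these wells in the difference between blocks was not tested.

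Btk, the Tec-family kinase that acts on phospholipase C, was likewise read in more mature mast cells. It ranged from 0 through a median of 202.5 to 1150 CPM in mature mast cells while the BMCP range was from 0 through 33.4 to 1724 CPM. It was at 10 CPM or more in 71 of 94 (75.5%, 65.6 to 83.8) and 50 of 93 (53.8%, 43.1 to 64.2) cells. The difference was smaller for at least 1 read, found in 79 (84%) and 73 (78.5%) cells, and after thinning to 100000 reads it was 71 against 54 cells. Pooled Btk was at 252.5 and 209.9 CPM, a log2 ratio of 0.27, with 0.31 and 0.23 in the blocks, whereas the ratio of cell medians was 2.57 on the log2 scale. A lower median beside a similar pool went with high values in fewer BMCPs, among them BMCP 2 with 8.01% of the BMCP reads and well 46 at 640.6 CPM. Mature mast cells also had more genes at 10 CPM or more per cell, and the part of this in the shares of Lyn, Plcg2 and Btk was not tested.

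Order of level per kilobase was largely shared between the gates. In mature mast cells the order was Fcer1a (3852 CPM per kb), Fcer1g (3288), Lat2 (497.1), Ms4a2 (234.3), Btk (80.2), Lyn (69.3), Lat (62.8), Plcg2 (15.4), Syk (6.71) and Gab2 (0.53). In BMCPs it was Fcer1g (3654 CPM per kb), Fcer1a (3111), Lat2 (728.1), Ms4a2 (261.01), Lat (120.6), Btk (66.6), Lyn (63.97), Syk (15.03), Plcg2 (8.22) and Gab2 (2.17). Between single cells the neighbours Fcer1a and Fcer1g, and Btk, Lyn and Lat, overlapped widely, so their order is that of the pools only.

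**Figure D2:**
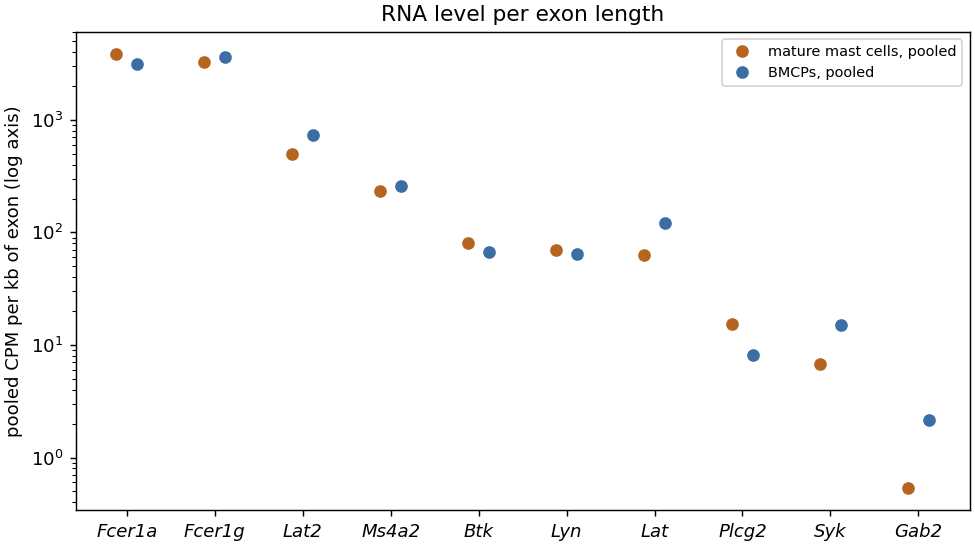
Pooled CPM per kilobase of annotated exon on a log axis, for mature mast cells (brown) and BMCPs (blue), ordered by the mature level; each point is 1 pool with no replicate. Fcer1a and Fcer1g lie at 3111 CPM per kb or more in both groups and Gab2 lies lowest in both.

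Across the group comparison, 2 of the 10 genes were at least 2-fold apart in pooled CPM, Syk and Gab2, both higher in BMCPs. Of 10556 genes that reached 5 CPM in a group, 19.2% were at least 2-fold higher in BMCPs, 9.9% were at least 2-fold higher in mature mast cells and 29.1% were so in either direction. The 2 of 10 in the BMCP direction were near that direction's background. Their median log2 ratio was -0.15 beside -0.25 over all these genes. Scaling moved all genes together: the all-gene median was -0.01 with TMM and 0.62 per ERCC read. Less the all-gene median, which removes such a shift by construction, the pooled log2 ratio was 0.56 for Fcer1a and 0.10 for Fcer1g and for Ms4a2. It was -0.69 for Lat, -0.30 for Lat2, 0.37 for Lyn and 0.52 for Btk. Plcg2, at 1.13, was then past 2-fold in the mature direction. Gab2 stayed past 2-fold in the BMCP direction at -1.49, whereas Syk, at -0.90, fell short of it. Without that subtraction Ms4a2 and Fcer1g were higher in mature mast cells under TMM, under both ERCC scalings and with granule genes left out of the totals, and Lat2 was so under both ERCC scalings.

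**Figure D3:**
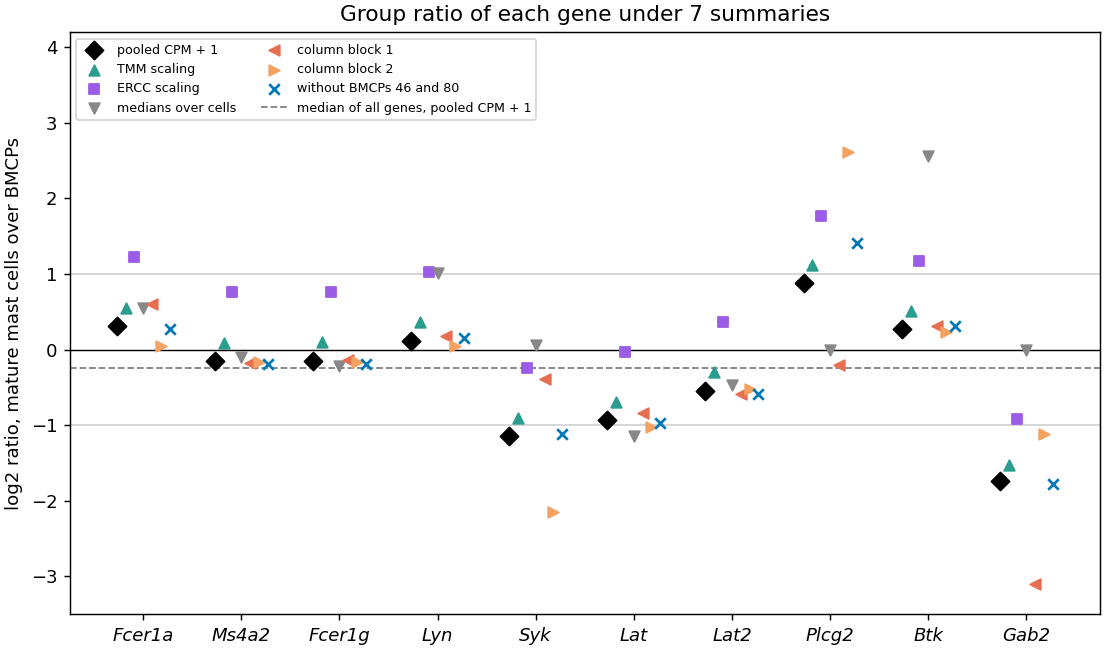
Log2 ratio of mature mast cells over BMCPs for each gene under 7 ways of summarising the same cells; the dashed line is the all-gene median at -0.25 and grey lines mark 2-fold. The points for Ms4a2, Fcer1g, Lat2 and Lat lie close together except under ERCC scaling, whereas those for Syk, Plcg2, Btk and Gab2 spread over more than 2 log2 units.

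From cell to cell the members' levels were little related. Over the 45 pairs of members, Spearman's rho on CPM had a median of -0.02 (range -0.23 to 0.23) over 94 mature mast cells and of 0.01 (-0.21 to 0.26) over 93 BMCPs, or 0.01 (-0.21 to 0.22) over the 91 without wells 46 and 80. These are descriptions of cells that share a preparation and a common total, and weak values in sparse counts are no finding. A search of 2135 other genes read in at least 50% of the cells of each group gave partners that were little closer. The highest mean rho was 0.36, of Fcer1g with the galectin gene Lgals1 (0.26 in mature mast cells, 0.46 in BMCPs, 0.43 without wells 46 and 80). For Fcer1a it was 0.33 with the granule proteoglycan core gene Srgn, for Lat2 0.29 with Cyp11a1, and for Ms4a2 0.24 with Ikzf2. Without the wells these were 0.31, 0.28 and 0.23 for the same partners, since the search was not repeated. For Ms4a2, Sat1 was then closer, at 0.25. For the members not named here, the highest mean rho over all kept cells lay between 0.25 (Plcg2) and 0.30 (Lat).

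Among BMCPs, receptor RNA went with granule RNA to a degree. The share of a cell's reads on 10 granule genes, taken out of the totals before the comparison, had a rho of 0.49 with Fcer1a, 0.38 with Fcer1g and 0.27 with Ms4a2 over 93 BMCPs. Over the 91 BMCPs without wells 46 and 80 these were 0.45, 0.34 and 0.22. Fcer1a also had a rho of 0.40 with endogenous reads per ERCC read in those 91 cells, a proxy of RNA content, and its part in the relation was not tested. In mature mast cells the rho was 0.04 for Fcer1a, 0.19 for Fcer1g and 0.09 for Ms4a2. Of the other members there, Lat2 was at 0.30, Btk at -0.26 and Lyn at -0.25, and the rest lay between -0.16 and -0.06. Granule shares of mature mast cells span a narrower range, and the part of this was not tested.

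BMCPs differ in Gzmb, a granzyme gene, and Fcer1a and Lat2 differed in opposite directions across this split. The 60 BMCPs with Gzmb at 100 CPM or more had a median Fcer1a of 2237 CPM (quartiles 1495 and 3487), and the 31 others had 3612 CPM (1994 and 5829). Lat2 went the other way, with medians of 2071 (1620 and 2961) and 1399 CPM (1152 and 1747). The medians of the 31 BMCPs with little Gzmb lay close to those of mature mast cells, 3546 CPM for Fcer1a and 1301 CPM for Lat2. Fcer1g was even, with medians of 3337 and 3283 CPM, as was Lat, with 292 and 290.5 CPM, and Ms4a2 had 738.6 and 523.2 CPM. Within the 60 and the 31 cells the rho with granule share was 0.27 and 0.44 for Fcer1a. It was 0.17 and 0.30 for Fcer1g, and 0.27 and 0.20 for Ms4a2. The cut at 100 CPM was chosen with earlier results known, wells 46 and 80 were left out, and cells of 1 sample were not tested against each other. Lat2 also had a rho of 0.37 with Gata2, a transcription factor gene of mast cells and basophils, over the 91 BMCPs.

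**Figure D4:**
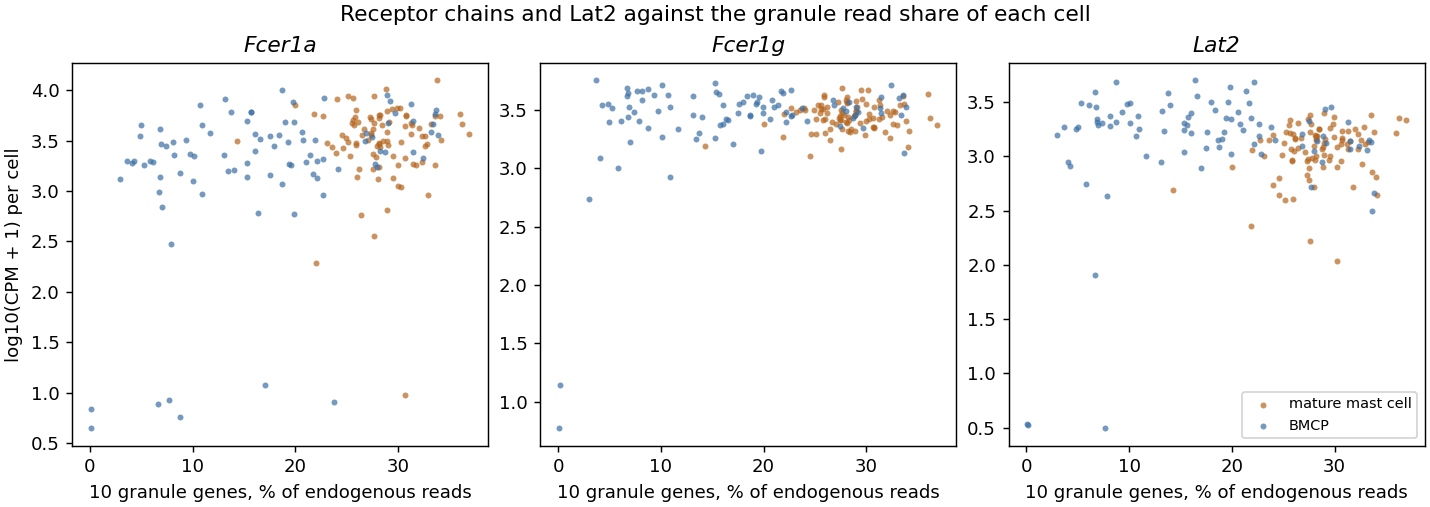
Level of Fcer1a, Fcer1g and Lat2 in each cell, as log10(CPM + 1), against the percent of endogenous reads on 10 granule genes, for mature mast cells (brown) and BMCPs (blue). BMCPs spread over the whole axis, the wells at the far left with low values are BMCPs 46 and 80, and Fcer1g stays in a narrow band elsewhere.

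Spread between cells was set beside that of the 5 ERCC RNAs nearest in abundance, which start equal in every well. Lyn in mature mast cells had a squared coefficient of variation of 1.03, within the range of its 5 nearest ERCC RNAs (0.45 to 1.65). Lyn in BMCPs, at 1.51, was also within the range (0.41 to 1.69). The match in abundance was loose. In mature mast cells those ERCC RNAs had means of 70.8 to 388.4 reads beside 356 for Lyn. In BMCPs they had 149.4 to 611.6 beside 324.3. A value inside the range therefore does not place the spread of a gene at the technical level. Btk was at 1.02 in mature mast cells and at 2.50 in BMCPs, above the ERCC range (0.41 to 1.69) in the latter. Syk was at 2.67 in mature mast cells, inside the range of 1.31 to 4.63, and at 3.92 in BMCPs, above 0.90 to 1.69. The most abundant members had more reads than any matched ERCC RNA and could not be placed this way.

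The rest of the pathway was followed through 74 genes in 7 lists, of which 73 had a row and 62 reached 5 CPM in either group. Of these, 2 were at least 2-fold higher in mature mast cells (3.23%) and 12 in BMCPs (19.4%), beside 9.9% and 19.2% of all genes tested, with a median log2 ratio of -0.25 beside the same -0.25 over all genes. Without wells 46 and 80, 61 genes reached 5 CPM, with 1 higher in mature mast cells and 11 in BMCPs. The gene that dropped out on the BMCP side was Fcer2a, the low-affinity IgE receptor CD23 of B cells, with 99.8% of its BMCP reads in those wells.

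Among Src kinases and their regulators, no gene at 5 CPM was 2-fold higher in mature mast cells. Src, the kinase that gives the family its name, had a log2 ratio of -1.26 that was 0.23 without its highest BMCP. Fyn, the Src-family kinase that works beside Lyn in mast cells, was at 51.8 and 31.5 CPM. Pooled Lyn exceeded Fyn per kilobase by 5.84-fold in mature mast cells and 8.87-fold in BMCPs. The most abundant gene of the list was the phosphatase Ptprc (CD45), at 285.7 and 276.7 CPM.

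Adaptors gave 2 of 8 genes higher in BMCPs, Nck1 (log2 ratio -1.11, and -0.60 without BMCP 51) and Stap1 (-2.76). Stap1, an adaptor known from B cells and myeloid cells, was at 13.6 CPM in the mature pool against 98.1 CPM in the other, and at 10 CPM or more in 9 and 20 cells. Its ratio without wells 46 and 80 was -2.63. Lcp2 (SLP-76), the scaffold that joins Lat to phospholipase C, led the list at 261.5 and 290.4 CPM.

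The list of Tec kinases, phospholipase C and exchange factors had 1 of 8 genes higher in mature mast cells and 3 in BMCPs. Sos1 was at 16.05 and 2.87 CPM (log2 ratio 2.14), in 5 and 1 cells at 10 CPM or more. Tec was at 10.4 and 53.1 CPM (-2.25), and the ratio was -1.61 without wells 46 and 80, of which 46 held 38% of the BMCP reads. Sos2 (-1.64) and Rasgrp1 (-4.12) were at 10 CPM or more in 6 and 2 BMCPs, and without the highest BMCP they were at -0.97 and -2.13. Btk was above Tec per kilobase in 76 of 80 mature mast cells and 67 of 80 BMCPs with a read of either. The exchange factor Vav1 led the list, at 122.7 and 160.2 CPM. Plcg1, the other γ phospholipase, was at 52.2 and 84.2 CPM, and its ratio to Plcg2 per kilobase was 0.43 in mature mast cells and 1.30 in BMCPs.

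Phosphoinositide 3-kinase genes had 1 of 8 higher in each direction, Pik3r2 (1.00) in mature mast cells and Pik3cd (-1.02) in BMCPs. The first was 0.60 without its highest mature mast cell, and the latter, which encodes the δ catalytic subunit of leukocytes, was -0.46 without its highest BMCP. Pik3cd was also the most abundant gene of the list in BMCPs, at 98.4 CPM, as Pik3cg was in mature mast cells, at 48.2 CPM. Of 12 calcium and protein kinase C genes, none was 2-fold higher in mature mast cells and 2 were in BMCPs, Stim2 (-3.22) and Orai2 (-1.28). BMCP 52 held 73.8% of the BMCP reads of Stim2. Prkcd, the protein kinase C δ gene, led the list at 519 and 605.5 CPM.

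Negative regulators had 1 of 16 genes higher in BMCPs, the diacylglycerol kinase Dgka (-1.02, and 0.92 without BMCP 52), and none in mature mast cells. The phosphatases that brake IgE signalling were read in most cells. Ptpn6 (SHP-1) was at 736.1 and 851 CPM, in 89 of 94 and 77 of 93 cells at 10 CPM or more, and Inpp5d (SHIP1) at 355.6 and 442.8 CPM in 90 of 94 and 83 of 93 cells at 10 CPM or more. The inhibitory IgG receptor Fcgr2b was at 185.7 and 198.8 CPM. Among other Fc receptor and activation-motif chains, 1 of 4 genes was higher in BMCPs, Fcer2a. Tyrobp (DAP12), an activation-motif chain like Fcer1g, was at 1117 and 1667 CPM, and Fcer1g exceeded it per kilobase by 1.96-fold and 1.46-fold. Fcgr3, whose protein uses the Fcer1g chain, was at 814.6 and 739.9 CPM.

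**Figure D5:**
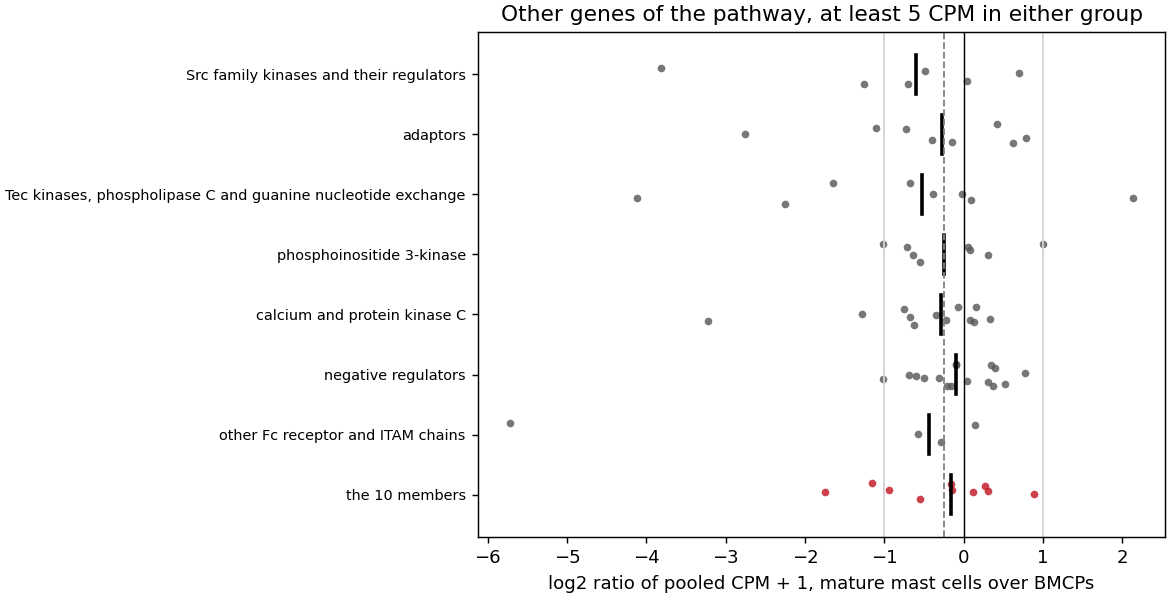
Log2 ratio of pooled CPM + 1, mature mast cells over BMCPs, for 62 other genes of the pathway in 7 lists (grey) and for the 10 genes (red); bars are medians, the dashed line is the all-gene median and grey lines mark 2-fold. Most points lie within 2-fold, and the far left points, such as Fcer2a and Rasgrp1, were each read in few BMCPs.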

How the data were processed

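Single cells were sorted, and poly(A) RNA was amplified with ERCC spike-ins and sequenced, per the labels' protocols. The authors deposited a table of raw counts, not normalized, with a row per gene and a column per cell. GSNAP, HTSeq 0.5.3p3 and build mm10 are named in the submitters' processing notes. The annotation release and use of strand are not given in the sources used here. Rows without a gene (no feature 14.4%, ambiguous 3.11%, not aligned 14.1% of reads) and ERCC rows stayed out of totals. GENCODE M21 matched 45143 of 46078 identifiers. BMCPs 6 and 93, with 3978 and 36972 endogenous reads, fell below the minimum of 100000. Doublets were not called, because wells were sorted for 1 cell.

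Counts were summed per group. Ratios are log2 of mature CPM + 1 over BMCP CPM + 1, shown at 2-fold or more where either group had 5 CPM. Intervals are exact Poisson or Clopper-Pearson. Scaling alternatives used edgeR 4.0.16 (TMM), and code was tested on simulated data. Named were the 10 members, each list's most abundant gene, and pathway genes 2-fold apart. For each member the 3 most alike genes were searched, and the first is printed for Fcer1a, Fcer1g, Lat2 and Ms4a2 only. Other genes named (Fyn, Plcg1, Inpp5d, Fcgr2b, Fcgr3) were chosen after their values were seen. The members and lists were chosen with earlier results of these data known. Some genes of the lists are not reported here.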

Additional observations from a re-analysis of the deposited data

How the results depend on the processing

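The members' log2 ratios, their median and the number 2-fold apart were recomputed under 16 alternatives, of which 3 (either column block alone, and ERCC scaling without BMCP 55) were, like the pathway counts and rho values without BMCPs 46 and 80, chosen after seeing the data. The number of members at least 2-fold apart was 2, and became 4 under ERCC scaling, 1 with a pseudocount of 10 CPM, 1 in block 1 and 4 in block 2. It was 3 with means or medians over cells, without each gene's highest mature mast cell, without BMCPs 46 and 80 and after thinning, and 2 under the other 7. The genes changed as well: Gab2 was at least 2-fold higher in BMCPs under 12 of the 16 alternatives and Syk under 9. Plcg2 was at least 2-fold higher in mature mast cells under 7. The 2 genes were Plcg2 and Gab2 under TMM, without granule genes in the totals and without each gene's highest BMCP. Under ERCC scaling without BMCP 55 they were Fcer1a and Plcg2, both higher in mature mast cells, as were all 4 under ERCC scaling. The all-gene median was 0.43 and 0.62 under these scalings, so all genes moved in that direction. The share of all genes 2-fold apart was not computed under the alternatives, so these counts are not results about the members. Shares of cells were recomputed under 3 other criteria, and per-kilobase and spread values under none. The members' median log2 ratio of -0.15 became 0.0 with medians over cells, 0.0925 with TMM, 0.759 under ERCC scaling, 0.562 under ERCC scaling without BMCP 55, 0.0499 with totals without granule genes, -0.176 without each gene's highest mature mast cell, -0.121 without its highest BMCP, -0.189 without BMCPs 46 and 80, and -0.192 in block 1. Syk turned from -1.15 to 0.0542 with medians over cells. Fcer1a ranged from 0.05 to 1.22, Lyn from 0.05 to 1.02, Btk from 0.18 to 2.57 and Lat from -1.14 to -0.03 without a change of sign. Plcg2 ranged from -0.21 to 2.61 and Gab2 from -3.10 to 0. Where not shown by the alternative's construction, the cause was not tested. No paired analysis was possible because each group was 1 pooled sample, cell numbers pair nothing and no test was made.

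After thinning to 100000 reads per cell, a read remained in 44.7%, 33% and 7.45% of mature mast cells for Syk, Plcg2 and Gab2, against 52.1%, 40.4% and 12.8% at full depth. Amplification copies could not be separated from molecules.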
